A study of Mus musculus with 11 samples.

Results

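In mouse ES cells, 9 genes of the 2-cell-like state that lie outside the Zscan4 cluster were followed: Usp17lc, Usp17le, Usp17la, Tdpoz1, Tdpoz3, Tdpoz4, Zfp352, Tcstv1 and Tcstv3. They were chosen by gene symbol and are 9 of the 24016 genes in the deposited expression table. PolyA RNA of mouse embryonic stem (ES) cells was sequenced in 11 libraries of 9 genotypes, all of the J1 line of strain 129S4/SvJae and all grown on irradiated fibroblast feeders in serum with LIF. The lines built on the triple knockout (TKO, without Dnmt1, Dnmt3a and Dnmt3b) were TKO+Dnmt3a1 (2 libraries), TKO+Dnmt3a2 (2 libraries) and TKO+Dnmt3b1 (1 library), each with 1 DNA methyltransferase isoform put back. The parent TKO line had 1 library. The lines built on the double knockout (DKO, without Dnmt3a and Dnmt3b, with Dnmt1 kept) were DKO+Dnmt3a1, DKO+Dnmt3a2 and DKO+Dnmt3b1, with 1 library each, beside 1 library of the parent DKO line. Wild-type J1 cells (WT) had 1 library. Each genotype is thus 1 line, and nothing in the labels says that paired libraries were grown as separate cultures. In fits with terms for family and enzyme, a p-value therefore rests on the spread between these libraries and lines, which may be technical or belong to a single line. In fits with a mean for each of the 9 genotypes, it rests only on the spread within the paired libraries of TKO+Dnmt3a1 and TKO+Dnmt3a2. Genotypes with 1 library, WT and both parents among them, add no spread of their own there.

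Dnmt3a and Dnmt3b set DNA methylation on unmethylated DNA, and Dnmt1 copies it to the new strand after replication. Dnmt3a2 is a shorter isoform of Dnmt3a1 made from an internal promoter, and Dnmt3b1 is the full-length, catalytically active isoform of Dnmt3b. Mouse ES cell cultures hold a small, shifting fraction of cells that switch on genes and the MERVL retrovirus of the 2-cell embryo, the stage at which the mouse genome is first transcribed at large scale. Zscan4, Zfp352, Tcstv and Tdpoz genes are markers of that fraction, and many of them lie in arrays of near-identical copies. In bulk RNA, fewer cells in this state and less RNA per such cell cannot be told apart.

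The upstream sequences show how far these genes differ in CpG content, the target of the enzymes, and how alike the Usp17 copies are. RefSeq promoters on GRCm38.p6 were given for 5 of the 9 members, while the expression table was made on mm9, so positions serve only to place the sequences. Each line gives the 250 bases before the transcript start, 5′ to 3′ on the strand of the gene. Capitals mark CG, TATAAA and CACACC, the last chosen after the sequences were read. Matches were searched on both strands, and CACACC and CG can overlap only where G follows CACACC, which no printed window holds. The windows lie at chr7:103416446-103416695 (plus strand) for Usp17lc, chr7:104856766-104857015 (plus strand) for Usp17la, chr3:93796148-93796397 (plus strand) for Tdpoz4 and chr4:90218570-90218819 (plus strand) for Zfp352.
Usp17lc: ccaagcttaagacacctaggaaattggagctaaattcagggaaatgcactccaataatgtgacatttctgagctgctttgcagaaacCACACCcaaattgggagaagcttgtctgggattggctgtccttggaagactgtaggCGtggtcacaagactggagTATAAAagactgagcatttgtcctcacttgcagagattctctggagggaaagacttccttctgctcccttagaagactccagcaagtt
Usp17la: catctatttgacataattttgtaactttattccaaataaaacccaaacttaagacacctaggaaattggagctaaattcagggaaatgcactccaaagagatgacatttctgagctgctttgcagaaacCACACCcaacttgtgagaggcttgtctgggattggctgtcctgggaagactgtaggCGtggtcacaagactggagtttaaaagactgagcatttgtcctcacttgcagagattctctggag
Tdpoz4: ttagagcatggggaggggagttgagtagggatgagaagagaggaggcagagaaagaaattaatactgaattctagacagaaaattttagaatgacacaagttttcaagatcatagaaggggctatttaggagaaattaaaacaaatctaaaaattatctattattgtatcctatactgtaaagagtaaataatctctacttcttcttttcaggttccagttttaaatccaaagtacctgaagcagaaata
Zfp352: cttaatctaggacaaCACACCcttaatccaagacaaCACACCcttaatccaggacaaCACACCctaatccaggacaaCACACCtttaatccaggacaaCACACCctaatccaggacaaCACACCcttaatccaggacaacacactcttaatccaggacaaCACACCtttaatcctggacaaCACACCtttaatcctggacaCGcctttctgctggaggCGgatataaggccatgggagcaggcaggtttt
Usp17lc and Usp17la each held 1 CG, Tdpoz4 none and Zfp352 2, against a median of 6 over 32851 promoters of the same length. Of those promoters, 7.9% had no CG, 18.8% had 1 or fewer and 29.0% had 2 or fewer. TATAAA stood in Usp17lc alone among the 5 matched members and in 12.4% of all promoters. CACACC occurred 8 times in Zfp352, in a tandem array, and once in each Usp17 promoter, against 16.3% of all promoters with any copy. The Tdpoz1 window held no CG and 4 copies of CACACC.

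The members share sequence with close copies, which bears on how their reads could be assigned. Of the 50-base stretches of its transcript, Usp17lc shared 61.2% with other copies, and it was 98.3% identical to Usp17ld over the aligned bases. Tdpoz1 shared 41.2%, with Gm9125 as its closest copy at 98.0% identity. Tcstv1 and Tcstv3, which were 94.2% identical to each other, shared 25.3% and 25.6% of these stretches with copies. Usp17le shared 25.2%, Tdpoz4 24.7% and Usp17la 15.3%. Zfp352 (6.3%) and Tdpoz3 (3.1%) had the least shared sequence. How reads with several matches were counted is not given in the sources used here, so the level of a Usp17, Tdpoz or Tcstv gene is uncertain against that of its copies.

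The libraries held an implied 21.8 to 32.8 M reads. Dnmt1 stood at 6.73 to 12.4 RPKM (reads per kilobase of transcript, scaled to the size of the library) in the 6 libraries of the TKO family, against 55.9 to 74.5 RPKM in the 4 of the DKO family and 71.0 RPKM in WT. Dnmt3a stood at 4.24 RPKM in TKO and 3.63 RPKM in DKO, against 22.7 RPKM in WT. The 6 libraries with a Dnmt3a isoform put back had 11.1 to 39.4 RPKM of Dnmt3a. Dnmt3b stood at 45.3 RPKM in TKO and 5.68 RPKM in DKO, against 25.0 RPKM in WT. TKO+Dnmt3b1 had 100.4 RPKM of Dnmt3b and DKO+Dnmt3b1 29.6 RPKM. The Dnmt3b RNA of the library labelled TKO was thus not below WT. Which exons were deleted is not given in the sources used here, so gene-level RNA does not by itself check the loss of an enzyme. All 12 ES cell markers reached 1 RPKM in all 11 libraries. The summed level of 30 fibroblast markers was 4315 RPKM in TKO+Dnmt3b1 and 3197 RPKM in DKO+Dnmt3b1, against 379 to 1624 RPKM in the other 9 libraries. The summed level of 18 macrophage markers was 320.5 and 293.7 RPKM in those 2 libraries, against 13.1 to 117 RPKM in the others, with Emr1, Tyrobp, C1qa, C1qb, C1qc and Ptprc at 0 in DKO+Dnmt3a2. The ES cell markers summed to 2228 RPKM in TKO+Dnmt3b1 and 2809 RPKM in DKO+Dnmt3b1, against 3164 to 4208 RPKM elsewhere. The part of these other cells in the results below was not tested.

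The members ranged from undetected in some libraries to the 65.7 RPKM of Tcstv3 in DKO+Dnmt3b1. The Tcstv pair made up most of the signal, 64.2% to 87.6% of the summed level of the 9 members in each library. The 9 members summed to 148 RPKM in DKO+Dnmt3b1, 35.98 RPKM in TKO+Dnmt3b1, 30.7 RPKM in DKO+Dnmt3a1 and 26.1 RPKM in DKO+Dnmt3a2. They summed to 6.10 and 26.6 RPKM in the TKO+Dnmt3a1 replicates and to 9.26 and 12.9 RPKM in the TKO+Dnmt3a2 replicates. The parents stood at 7.70 RPKM (TKO) and 6.69 RPKM (DKO), and WT at 27.3 RPKM. Both parents were thus below WT, and DKO+Dnmt3b1 stood 5.41 times above WT. DKO+Dnmt3b1 was the highest of the 11 libraries for all 9 members, which held for 6.85% of the 14229 genes tested. Tdpoz3 passed the low-value filter through this library alone and Tdpoz1 did not pass, so neither counts against that share. The 2 TKO+Dnmt3a1 libraries lay on either side of TKO and of both TKO+Dnmt3a2 libraries, so the TKO+Dnmt3a1 and TKO+Dnmt3a2 lines and the TKO parent cannot be ordered beyond their spread.

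**Figure D1:**
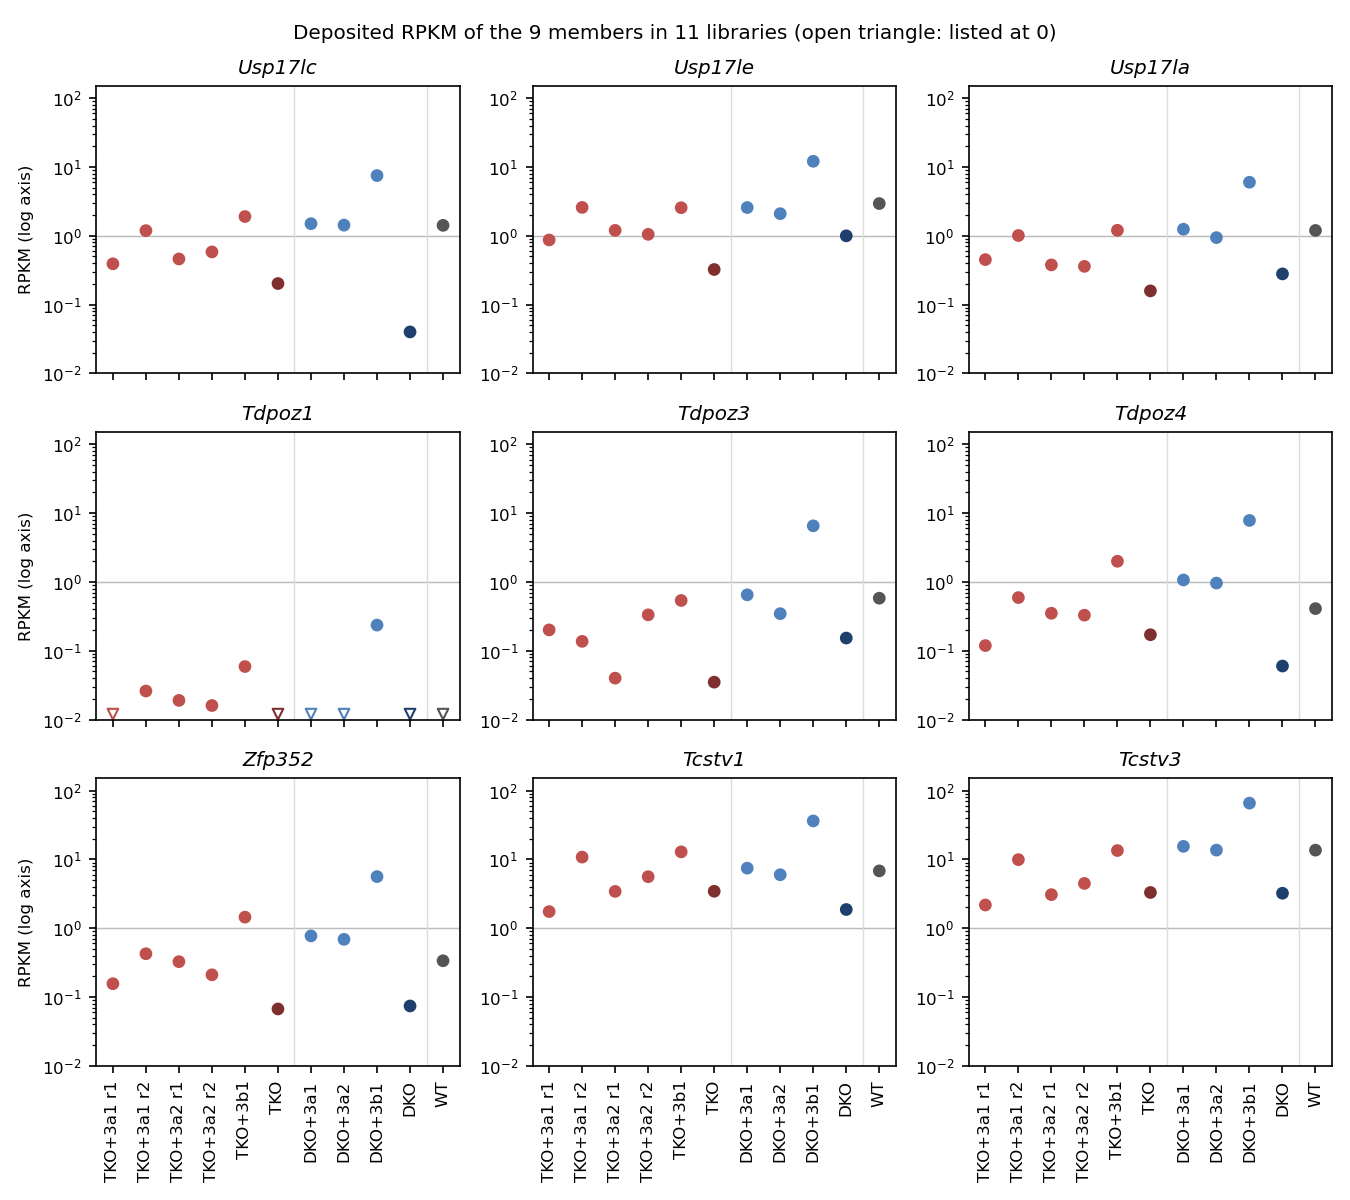
Deposited RPKM (log axis) of each of the 9 members in the 11 libraries, 1 point per library; 3a1, 3a2 and 3b1 stand for the Dnmt3a1, Dnmt3a2 and Dnmt3b1 isoform put back, r1 and r2 are replicates, open triangles mark 0 and the grey horizontal line is 1 RPKM. DKO+Dnmt3b1 is the highest point in all 9 panels, and Tdpoz1 is listed at 0 in 6 libraries.

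The Usp17 genes encode deubiquitinating enzymes, first described as cytokine-induced enzymes of blood cells. Usp17lc stood at 0.391 and 1.19 RPKM in TKO+Dnmt3a1, 0.460 and 0.582 RPKM in TKO+Dnmt3a2 and 1.90 RPKM in TKO+Dnmt3b1, against 0.202 RPKM in TKO. It stood at 1.497 RPKM in DKO+Dnmt3a1, 1.43 RPKM in DKO+Dnmt3a2 and 7.49 RPKM in DKO+Dnmt3b1, against 0.040 RPKM in DKO, about 2 reads, and 1.42 RPKM in WT. Every add-back library was above its own parent, and DKO+Dnmt3b1 stood apart at the top. Usp17le, the most abundant of the 3 by RPKM in 11 of 11 libraries, stood at 0.868 and 2.58 RPKM in TKO+Dnmt3a1, 1.20 and 1.05 RPKM in TKO+Dnmt3a2 and 2.56 RPKM in TKO+Dnmt3b1, against 0.323 RPKM in TKO. It stood at 2.57 RPKM in DKO+Dnmt3a1, 2.09 RPKM in DKO+Dnmt3a2 and 12.1 RPKM in DKO+Dnmt3b1, against 0.997 RPKM in DKO and 2.94 RPKM in WT. Here too the parents were below each of their own add-back lines. Usp17la ranged between 0.359 and 5.99 RPKM in the 8 add-back libraries, against 0.158 RPKM in TKO, 0.279 RPKM in DKO and 1.19 RPKM in WT, again with no overlap within a family.

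Tdpoz genes encode proteins with a TRAF domain and a BTB/POZ domain, related to the ubiquitin ligase adaptor Spop. Tdpoz4 stood at 0.119 and 0.593 RPKM in TKO+Dnmt3a1, 0.351 and 0.329 RPKM in TKO+Dnmt3a2 and 1.999 RPKM in TKO+Dnmt3b1, against 0.171 RPKM in TKO. It stood at 1.07 RPKM in DKO+Dnmt3a1, 0.963 RPKM in DKO+Dnmt3a2 and 7.84 RPKM in DKO+Dnmt3b1, against 0.060 RPKM in DKO, about 2 reads, and 0.410 RPKM in WT. The DKO add-backs did not overlap their parent, while TKO+Dnmt3a1 replicate 1 lay below TKO. Tdpoz3 reached 1 RPKM in DKO+Dnmt3b1 alone, at 6.54 RPKM, and ranged between 0.040 and 0.650 RPKM in the other 7 add-back libraries, against 0.035 RPKM in TKO, 0.153 RPKM in DKO and 0.581 RPKM in WT. Tdpoz1 was the faintest member, with 0.236 RPKM or about 18 reads in DKO+Dnmt3b1 and 0.059 RPKM in TKO+Dnmt3b1, and 0 in 6 libraries, WT and both parents among them. It failed the low-value filter (1 RPKM in at least 1 library), and the other 8 members, 8 of 9, were tested. Tdpoz3, Tdpoz4 and Zfp352 passed it through add-back libraries alone, so counts and medians over the 8 partly restate the filter where add-backs are set against parents.

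Zfp352 encodes a zinc finger protein of the 2-cell embryo whose gene has no introns. It stood at 0.156 and 0.425 RPKM in TKO+Dnmt3a1, 0.326 and 0.210 RPKM in TKO+Dnmt3a2 and 1.45 RPKM in TKO+Dnmt3b1, against 0.067 RPKM in TKO. It stood at 0.772 RPKM in DKO+Dnmt3a1, 0.688 RPKM in DKO+Dnmt3a2 and 5.62 RPKM in DKO+Dnmt3b1, against 0.074 RPKM in DKO and 0.336 RPKM in WT. Every add-back was above its parent, with the Dnmt3b1 line the highest of each family.

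Tcstv1 and Tcstv3, named for the 2-cell stage, are known in mouse ES cells for a part in telomere lengthening. Tcstv3 stood at 2.17 and 9.91 RPKM in TKO+Dnmt3a1, 3.07 and 4.47 RPKM in TKO+Dnmt3a2 and 13.4 RPKM in TKO+Dnmt3b1, against 3.30 RPKM in TKO. It stood at 15.5 RPKM in DKO+Dnmt3a1, 13.6 RPKM in DKO+Dnmt3a2 and 65.7 RPKM in DKO+Dnmt3b1, against 3.22 RPKM in DKO and 13.6 RPKM in WT. Replicate 1 of both TKO+Dnmt3a lines lay below TKO, while the DKO add-backs did not overlap DKO. Tcstv1 stood at 1.74 and 10.8 RPKM in TKO+Dnmt3a1, 3.42 and 5.60 RPKM in TKO+Dnmt3a2 and 12.8 RPKM in TKO+Dnmt3b1, against 3.44 RPKM in TKO. It stood at 7.45 RPKM in DKO+Dnmt3a1, 5.97 RPKM in DKO+Dnmt3a2 and 36.2 RPKM in DKO+Dnmt3b1, against 1.87 RPKM in DKO and 6.80 RPKM in WT. The Tcstv pair were the only members at or above 1 RPKM in all 11 libraries.

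The 2 replicated lines show how far libraries of 1 line can lie apart. In TKO+Dnmt3a1, replicate 2 was above replicate 1 for 7 of the 8 tested members, by 2.24-fold (Usp17la) to 6.19-fold (Tcstv1), and below it for Tdpoz3 (0.682-fold). In TKO+Dnmt3a2 the ratio of replicate 2 to replicate 1 lay between 0.644 (Zfp352) and 1.64 (Tcstv1), apart from Tdpoz3 at 8.33, which rests on about 1 read in replicate 1. Across the 28 pairs of tested members, Pearson's r of log2(RPKM + 0.5) over the 11 libraries lay between 0.802 and 0.995, with a median of 0.923. These points share the libraries, their depth and in part the reads of close copies.

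Adding an enzyme back went with higher levels of these genes. All 8 tested members were higher in the 8 add-back libraries than in the 2 parents, and 4 rose past an adjusted p of 0.05 (limma, family and enzyme as additive terms): Usp17lc, Usp17le, Tdpoz4 and Zfp352. Of all 14229 genes tested, 1.12% rose and 2.81% fell. Among the 5 members that also reached 1 RPKM outside the add-back libraries, 5 were higher and 2, Usp17lc and Usp17le, were called, with a median log2 change of 1.59. Usp17lc averaged 1.87 RPKM in add-back libraries and 0.121 RPKM in parents, a log2 change of 1.78 ± 0.37 (SE, adjusted p = 0.0449). Zfp352 averaged 1.21 RPKM in add-back libraries and 0.0705 RPKM in parents, a log2 change of 1.39 ± 0.30 (adjusted p = 0.0454). Usp17le rose by 1.55 ± 0.35 (adjusted p = 0.0486) and Tdpoz4 by 1.54 ± 0.35 (adjusted p = 0.0491) on this scale. The other 4 did not pass: Usp17la had a log2 change of 1.31 ± 0.32 (adjusted p = 0.0547), Tcstv3 of 1.75 ± 0.52 (0.0804), Tcstv1 of 1.59 ± 0.56 (0.114) and Tdpoz3 of 1.08 ± 0.44 (0.155). The median over the 8 was 1.55, against -0.01 over all genes. Changes are on the log2(RPKM + 0.5) scale, which understates the change of low genes such as these. Every add-back library was above its parent for 5 of the 9 members (Usp17lc, Usp17le, Usp17la, Tdpoz3 and Zfp352), against 8.47% of all genes tested. For Tdpoz3 this rests on 0.040 RPKM in TKO+Dnmt3a2 replicate 1 against 0.035 RPKM in TKO, about 1 read in each.

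These 4 calls sit near the threshold, and none was made with each line counted once, without the low-value filter or with 9 group means. No member passed without both Dnmt3b1 libraries (median change 0.865), nor without any 1 of TKO+Dnmt3a1 replicate 1 or 2, TKO+Dnmt3a2 replicate 1, TKO+Dnmt3b1, DKO, DKO+Dnmt3a1, DKO+Dnmt3a2 or DKO+Dnmt3b1, and 2 passed without TKO+Dnmt3a2 replicate 2; all 8 stayed higher in each of these fits, with medians between 0.865 and 1.73.

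Within each family, the Dnmt3b1 library had the highest sum of the 9 members. All 8 tested members rose in the 2 Dnmt3b1 libraries relative to the 6 Dnmt3a1 and Dnmt3a2 libraries (limma), where 13.5% of all genes rose and 7.17% fell. Zfp352 and Tdpoz3 reached 1 RPKM in Dnmt3b1 libraries alone, so that their passing the filter favoured a difference; the 6 other members all rose, with a median of 1.73. Zfp352 averaged 3.53 RPKM with Dnmt3b1 and 0.430 RPKM with a Dnmt3a isoform, a log2 difference of 1.81 ± 0.31 (adjusted p = 0.00664). Tdpoz4 averaged 4.92 RPKM with Dnmt3b1 and 0.571 RPKM with a Dnmt3a isoform, a log2 difference of 2.03 ± 0.36 (adjusted p = 0.00797). Tcstv3 averaged 39.5 RPKM with Dnmt3b1 and 8.12 RPKM with a Dnmt3a isoform, a log2 difference of 1.89 ± 0.53 (adjusted p = 0.0381). The other 5 differed by 1.35 ± 0.33 (Usp17la, adjusted p = 0.0235), 1.39 ± 0.36 (Usp17le, 0.03), 1.57 ± 0.39 (Usp17lc, 0.0235), 1.67 ± 0.46 (Tdpoz3, 0.0357) and 1.90 ± 0.58 (Tcstv1, 0.0481). The median was 1.74, against 0.01 over all genes. Both Dnmt3b1 libraries were above every Dnmt3a library of their family for 7 of the 8 tested members, all but Usp17le, against 28.2% of all genes tested. Zfp352 and Tdpoz3 are among these 7, so the count partly restates the filter. The untested Tdpoz1 had the same order.

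The calls rest on only 2 Dnmt3b1 libraries, which are also the 2 with the highest fibroblast and macrophage marker sums given above. The median was 1.13 without DKO+Dnmt3b1 and 2.44 without TKO+Dnmt3b1. Each of these fits keeps a single Dnmt3b1 library, so its calls are not read. Without DKO+Dnmt3a1, DKO+Dnmt3a2 or TKO+Dnmt3a2 replicate 2 there were 4, 3 and 5 member calls, with 3073, 1861 and 2201 of all genes called. All 8 members stayed higher in each of these 5 fits.

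**Figure D2:**
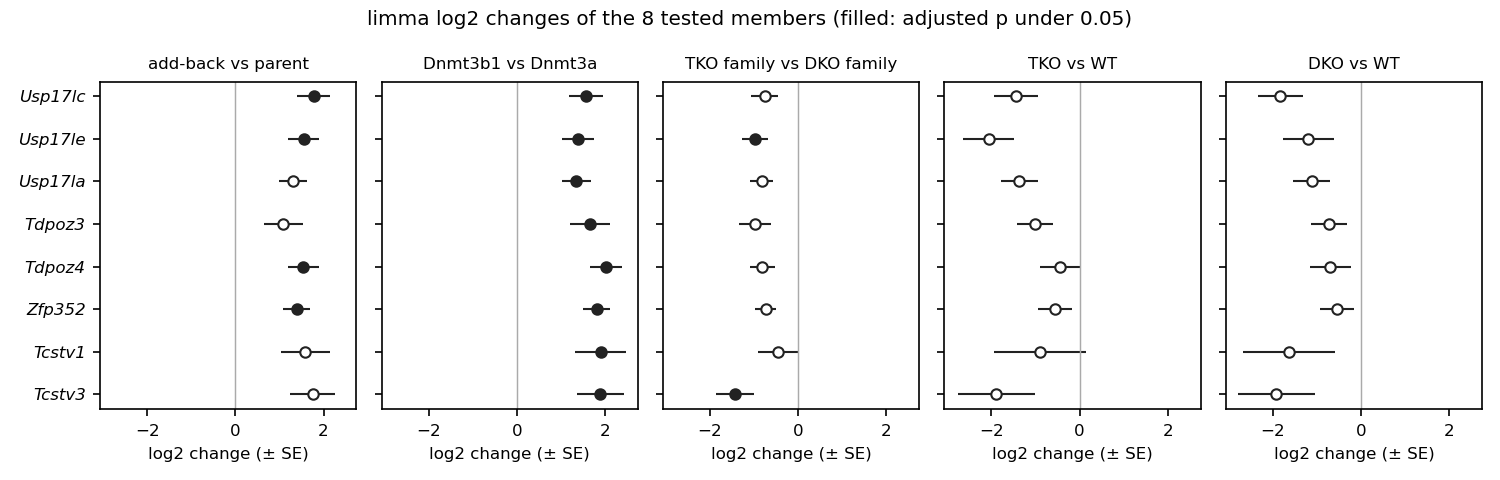
Log2 changes of RPKM + 0.5 with standard errors for the 8 tested members in 5 comparisons, first-named group minus second; filled points have an adjusted p under 0.05 (limma). All 8 are filled for Dnmt3b1 against Dnmt3a and 4 for add-back against parent, while none is filled for either parent against WT.

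The 2 libraries with the highest fibroblast marker sums were also the 2 with the highest member sums. TKO+Dnmt3b1 had the highest fibroblast sum (4315 RPKM) with a member sum of 35.98 RPKM, while DKO+Dnmt3b1 had 3197 RPKM with 148 RPKM. DKO+Dnmt3a2, with the lowest fibroblast sum (379 RPKM), had a member sum of 26.1 RPKM, against 6.69 RPKM in DKO, whose fibroblast sum was 1195 RPKM.

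**Figure D3:**
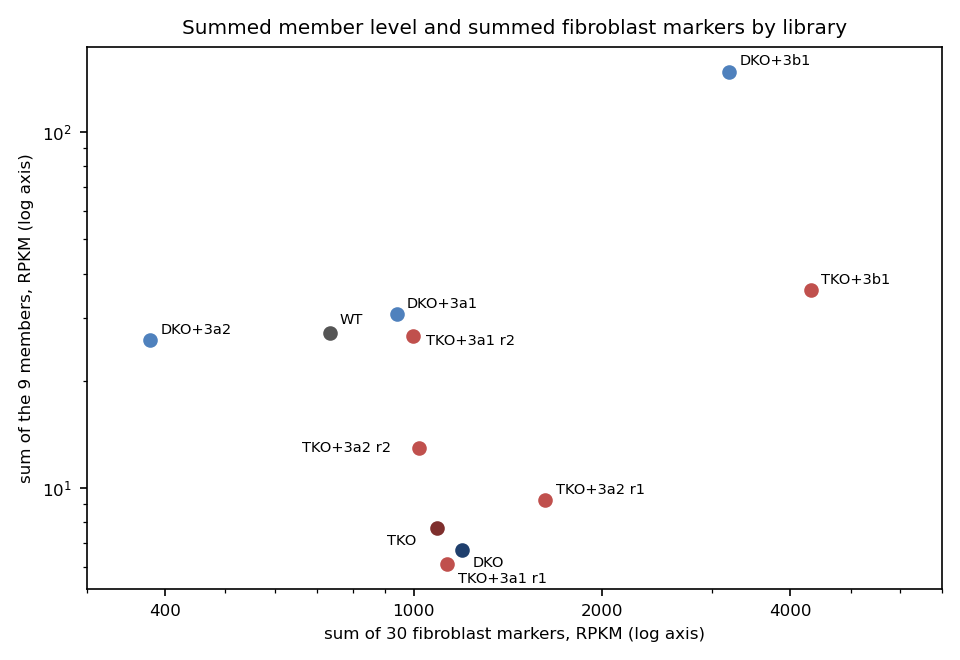
Summed RPKM of the 9 members against the summed RPKM of 30 fibroblast markers, both on log axes, 1 point per library, labelled as in the plot of member levels. The 2 Dnmt3b1 libraries lie at the right, at 3197 and 4315 RPKM of fibroblast markers, and DKO+Dnmt3a2 lies at the left at 379 RPKM.

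Taken 1 enzyme at a time, all 8 tested members were higher than in the parent in each of the 6 add-back lines, and none passed the adjusted threshold in any of them (limma, 9 group means). DKO+Dnmt3b1 against DKO gave the largest changes, with a median of 3.66 and a range of 3.06 to 4.15; 8 of 8 had an unadjusted p under 0.05, as had 3873 of the 14229 genes, and adjusted p-values were 0.0701 to 0.107. No gene of the 14229 passed there (0% called), so this comparison had no call to compare the members with. DKO+Dnmt3a1 against DKO had a median of 1.32 (0.82 to 2.10) with 4 members under an unadjusted 0.05 (2012 of all genes), and DKO+Dnmt3a2 against DKO a median of 1.22 (0.37 to 1.93) with 3 (2788). In each of these, 0.0281% of all genes fell and 0% rose. TKO+Dnmt3b1 against TKO had a median of 1.78 (0.96 to 1.90) with 5 members under an unadjusted 0.05 (3318 of all genes). TKO+Dnmt3a1 against TKO had a median of 0.47 (0.29 to 1.32) with 1 (1369 of all genes), and TKO+Dnmt3a2 against TKO a median of 0.36 (0.15 to 0.98) with 0 (1227). No gene was called in the 3 TKO comparisons (0%). Within a family the 3 comparisons share 1 parent library, so they are set side by side only. Tcstv1 and Tcstv3 turned below TKO for TKO+Dnmt3a1 without its replicate 2 (-0.81 and -0.51), as did Tdpoz4 (-0.12), and for TKO+Dnmt3a2 without its replicate 2 (-0.007 and -0.09).

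**Figure D4:**
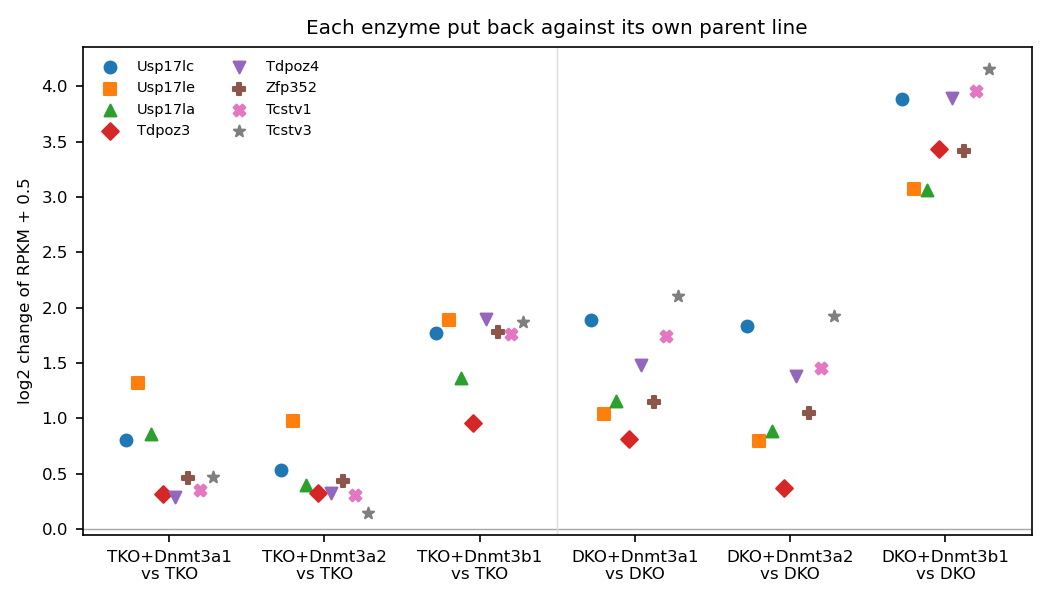
Log2 change of RPKM + 0.5 of each tested member in each of the 6 add-back lines against its own parent, 1 symbol per gene. All 48 points lie above 0, those of DKO+Dnmt3b1 between 3.06 and 4.15, and no point passed the adjusted threshold.

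Set by family, every DKO add-back library was above DKO for 8 of the 9 members, against 31.9% of all genes, and every TKO add-back library above TKO for 5 of the 9, against 15.9%. The 5 include Tdpoz3, which had about 1 read in both TKO+Dnmt3a2 replicate 1 and TKO. The difference in add-back response between the families was tested as an interaction. All 8 members had a smaller change in the TKO family, with a median difference of -1.14 (-1.86 to -0.15), but none passed (limma, adjusted p 0.327 to 0.943; 0% of all genes called). At an unadjusted 0.05, 2 of the 8 members and 2079 of all genes passed. Tdpoz3 passed the low-value filter through DKO+Dnmt3b1 alone, which favoured a smaller change in the TKO family. The direction for Usp17le turned without the Dnmt3b1 libraries (0.23). Between the long and the short Dnmt3a isoform in the TKO line no member was called (limma; 0 at an unadjusted 0.05; 0.00703% of all genes higher and 0% lower): 6 were higher with Dnmt3a1 and 2 with Dnmt3a2, with a median log2 difference of 0.15 and a range of -0.03 to 0.46. The median turned to -0.23 without TKO+Dnmt3a1 replicate 2 (2 higher, 6 lower), and was 0.76 without TKO+Dnmt3a1 replicate 1 and 0.33 without TKO+Dnmt3a2 replicate 2.

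Both knockouts had lower levels than WT without passing the test. All 8 members were lower in TKO than in WT, with a median log2 change of -1.19 (-2.06 to -0.44) and adjusted p-values of 0.189 to 0.686 (limma). The changes with the smallest p were those of Usp17le (0.323 RPKM in TKO, 2.94 RPKM in WT, -2.06 ± 0.58), Usp17la (-1.36 ± 0.42) and Usp17lc (-1.45 ± 0.50), the 3 members under an unadjusted 0.05 (2447 of all genes); 0.26% of all genes rose and 0.0843% fell. All 8 were lower in DKO than in WT, with a median of -1.16 (-1.92 to -0.54), adjusted p-values of 0.434 to 0.825 and 2 members, Usp17lc (-1.83 ± 0.50) and Usp17la (-1.12 ± 0.42), under an unadjusted 0.05 (limma; 0% of all genes called, 1181 at an unadjusted 0.05). Both knockouts were below WT for 8 of the 9 members, all but Tdpoz1, which was at 0 in all 3 libraries, against 25.4% of all genes. Both comparisons use the same single WT library.

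Against that same WT library, the mean of the 3 DKO add-back lines was higher for all 8 members, with a median log2 change of 0.78 (0.43 to 1.56), no call and 2 members under an unadjusted 0.05 (limma, adjusted p 0.12 to 0.59; 0% of all genes called, 3530 under an unadjusted 0.05). This rests on DKO+Dnmt3b1: without that library 4 members were higher and 4 lower, with a median of 0.004. The median was 1.21 without DKO+Dnmt3a2. Tdpoz3, Tdpoz4 and Zfp352 passed the low-value filter through add-back libraries alone, which favoured a higher value there than in WT. Tdpoz4 and Zfp352 were the 2 members under an unadjusted 0.05, so these counts and the median partly restate the filter. Every DKO add-back library was above WT for 4 of the 9 members, Usp17lc, Tdpoz4, Zfp352 and Tcstv3, a share near the 34.7% of all genes. In DKO+Dnmt3a2 the margin over WT was small for Usp17lc (1.427 against 1.416 RPKM) and Tcstv3 (13.628 against 13.61 RPKM). The mean of the 3 TKO add-back lines was higher than WT for 2 members and lower for 6, with a median of -0.45 (-1.06 to 0.40), no call and 0 members under an unadjusted 0.05 (limma; 0.836% of all genes rose and 0.197% fell, 4005 under an unadjusted 0.05). The 2 higher members were Tdpoz4 and Zfp352, which the filter favoured in the same way. Without TKO+Dnmt3b1 all 8 were lower, with a median of -0.71.

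Between the families, with the enzyme put back accounted for, all 8 members were lower in the TKO family than in the DKO family. Tdpoz3 passed the low-value filter through DKO+Dnmt3b1 alone, which favoured a lower value in the TKO family. Counts and the median over the 8 members partly restate this. Tcstv3 fell by 1.43 ± 0.42 (adjusted p = 0.044) and Usp17le by 0.98 ± 0.29 (adjusted p = 0.0432) on the log2 scale (limma), where 6.66% of all genes fell and 14.4% rose. The median of the members was -0.82, against 0.11 over all genes. The other 6 had changes between -0.97 (Tdpoz3) and -0.46 (Tcstv1) and did not pass, and 7 of the 8 were under an unadjusted 0.05, as were 5354 of all genes. Quantile normalization gave 6 member calls (2755 of all genes) and median ratio scaling 4 (3026 of all genes). The median was -0.51 without either or both Dnmt3b1 libraries. No member call remained without both or without any 1 of 7 libraries: TKO+Dnmt3a1 replicate 1, either TKO+Dnmt3a2 replicate, TKO+Dnmt3b1, DKO+Dnmt3a1, DKO+Dnmt3a2 or DKO+Dnmt3b1. In these fits 651 to 2482 of all genes were called. There were 5 member calls without TKO (3243 of all genes) or without DKO (3245 of all genes).

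The Tcstv pair did not keep 1 ratio across the families. Tcstv1 over Tcstv3 in RPKM was 0.803 and 1.09 for the TKO+Dnmt3a1 replicates, 1.11 and 1.25 for the TKO+Dnmt3a2 replicates, 0.956 in TKO+Dnmt3b1 and 1.04 in TKO. It was 0.482 in DKO+Dnmt3a1, 0.438 in DKO+Dnmt3a2, 0.551 in DKO+Dnmt3b1, 0.580 in DKO and 0.5 in WT. All 6 libraries of the TKO family were thus above all 4 of the DKO family and above WT. The mean log2 ratio was 0.05 ± 0.19 in the TKO family (SD, n = 6) and -0.91 ± 0.20 in the DKO family (SD, n = 4). The other 4 pairs, within Usp17 and Tdpoz3 with Tdpoz4, had mean log2 ratios that differed between the families by -0.16 to 0.23. The Tcstv ratio was chosen after its values were seen, so it is given as a description with no test. The libraries of a family descend from 1 parent line, so family and line cannot be told apart, and the 2 genes are 94.2% identical, so their ratio also depends on how reads of copies were assigned.

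**Figure D5:**
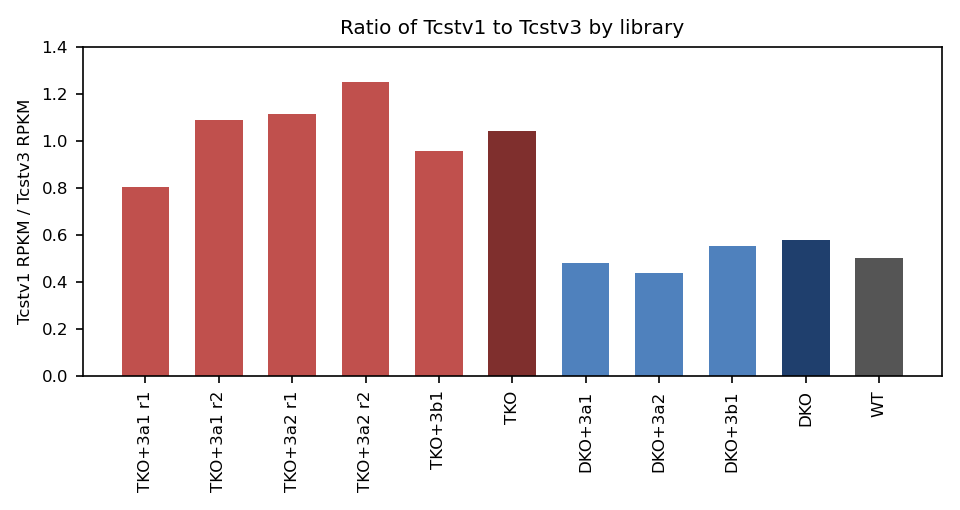
Ratio of Tcstv1 to Tcstv3 RPKM in each of the 11 libraries (bars from 0), TKO family in red, DKO family in blue, parents darker and WT in grey. The TKO family lies between 0.803 and 1.25, the DKO family between 0.438 and 0.580, and WT at 0.5.

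Other genes of the same state were followed by list. Of 18 close copies of the members, 10 were in the table and 4 passed the filter. Of the 4, Usp17ld, Gm4858 and BC147527 passed it through add-back libraries alone, so their direction partly restates the filter. All 4 were higher in add-back libraries than in parents, with a median log2 change of 1.09 and none called (limma; Usp17lb 1.81 ± 0.49 at adjusted p = 0.0657, BC147527 1.20 at 0.0769, Gm4858 0.99 at 0.0885, Usp17ld 0.91 at 0.0624). All 5 Zscan4 genes in the table, which encode zinc finger proteins with a part in telomere maintenance of mouse ES cells, were higher. Of these, 3 (Zscan4a, Zscan4b, Zscan4d) rose past the test, as did 1.12% of all genes tested, with changes of 1.72 to 2.64 over the 5. The Zscan4 sum was 109 RPKM in DKO+Dnmt3b1 and 9.71 RPKM in TKO+Dnmt3b1, against 1.37 RPKM in DKO, 1.32 RPKM in TKO and 20.0 RPKM in WT. In TKO+Dnmt3b1 the members were thus above WT in sum (35.98 against 27.3 RPKM) while the Zscan4 genes were below it.

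Of 30 other tested 2-cell genes, 25 were higher and 5 lower in add-back libraries than in parents, with a median of 0.76. The limma test called 3 of them higher, against 1.12% of all genes: Pramef25 (1.39 ± 0.22, adjusted p = 0.0333), Gm13078 (1.25 ± 0.26, 0.0443) and Gm8994 (1.70 ± 0.36, 0.0462). Gm13078, Dux, B020004J07Rik, BC080695, B020031M17Rik, Pramef6, Ubtfl1 and Cml2 passed the filter through add-back libraries alone, which favoured a higher value there. The largest changes, none called, were those of Gm5039 (2.01), Gm2016 (1.81) and Gm8300 (1.77) upward and Usp26 (-1.32), Pdzk1 (-0.85) and Nlrp4f (-0.64) downward. Among 29 regulators of the 2-cell-like state, 17 were higher and 12 lower, with a median of 0.15. Only Smchd1, a chromatin protein of the SMC family that acts in X inactivation, was called (limma). It fell to 16.1 RPKM in add-back libraries, against 23.6 RPKM in parents (-0.56 ± 0.10, adjusted p = 0.0401). This 1 of 29 is a share near the 2.81% of all genes that fell. Trim28, a corepressor of retroviruses, had a log2 change of 0.75 (adjusted p = 0.0535), Dppa2 of 0.63 (0.191) and Lin28a of 0.59 (0.0719); Chaf1b (-0.43), Smc5 (-0.24) and Dppa4 (-0.21) were the largest downward after Smchd1. Dux, the transcription factor known to switch on the 2-cell program in mouse, averaged 0.306 RPKM in add-back libraries and 0.16 RPKM in parents (0.32 ± 0.24, adjusted p = 0.41).

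Outside the members and the Zscan4 genes, the patterns most like the mean of the 8 tested members over the 11 libraries were those of BC147527 (Pearson's r = 0.990), Usp17lb (0.985), AU019990 (0.976), Ubtfl1 (0.970) and Gm5039 (0.966). By group, the most alike were Usp17lb, Usp17ld and BC147527 for Usp17 (0.967 to 0.981), Gm4858, AU019990 and BC147527 for Tdpoz (0.985 to 0.990), AU019990, B020004J07Rik and BC147527 for Zfp352 (0.979 to 0.989) and Usp17lb, Gm5039 and Ubtfl1 for Tcstv (0.959 to 0.981). The Zscan4 genes had r of 0.907 to 0.974 with the mean of the members. The points share libraries, and Usp17lb, Usp17ld, Gm4858 and BC147527 are listed as close copies of members, which may share reads.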

How the data were processed

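PolyA RNA went through a TruSeq kit that keeps no strand, per the labels' protocols. The submitters' processing notes name bcl2fastq 1.8.4, STAR 2.4.0 and the mm9 build; the counting tool and gene lengths are not given in the sources used here. The authors deposited RPKM values for 24016 genes, 1 column per library, and 0 columns were left unmapped. From the spacing of low values, 21.8 to 32.8 M reads per library were implied, at which 86.4% to 91.5% of low values were whole reads within 0.05.

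Genes that reached 1 RPKM in any library (14229) were tested with limma 3.58.1 (R 4.3.3, variance trend, two-sided, Benjamini-Hochberg over all of them) on log2(RPKM + 0.5). Add-back, enzyme and family comparisons used the 10 libraries other than WT with additive terms, the interaction added family by any add-back, and the others used 9 group means. The scripts were tested on simulated data. Members, gene lists and tests were chosen with earlier results of these data known. All 9 members are named; of each list, genes called in add-back against parent and the 3 largest changes each way are named, and the closest patterns by Pearson's r. Dux was named outside this rule, after its values were seen. Transcript identities came from GENCODE M21. Alternatives covered pseudocount, filter, scaling, trend, design and left-out libraries.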

Additional observations from a re-analysis of the deposited data

How the results depend on the processing

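In the 12 comparisons followed member by member, directions held in 1871 of 1884 values over the alternatives, with 175 of 175 in add-back against parent and 167 of 167 in Dnmt3b1 against Dnmt3a. The exceptions with a left-out replicate were, against TKO, Tcstv1 (-0.81 to 1.52 over the left-out replicates), Tcstv3 (-0.51 to 1.45) and Tdpoz4 (-0.12 to 0.70) for TKO+Dnmt3a1 and Tcstv1 (-0.007 to 0.63) and Tcstv3 (-0.09 to 0.39) for TKO+Dnmt3a2. In the difference of add-back response, Usp17le turned at pseudocount 0.1 (0.20) and without TKO+Dnmt3b1, DKO+Dnmt3b1 or both (0.23), with -0.399 to 0.23 over single left-out libraries. In the other 3 comparisons, DKO add-back lines against WT, which had 8 members higher, had 4 without DKO+Dnmt3b1, TKO add-back lines against WT, which had 2, had 0 without TKO+Dnmt3b1, and TKO+Dnmt3a1 against TKO+Dnmt3a2, which had 6, had 2 without TKO+Dnmt3a1 replicate 2.

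Counts of members called moved. Add-back against parent had 4 calls, and 1 at pseudocount 1, 0 without the low-value filter, 2 without the variance trend, 0 without both Dnmt3b1 libraries, 0 with each line counted once, 0 with 9 group means, and 0 to 4 with 1 library left out. Dnmt3b1 against Dnmt3a had 8, and 4 without the filter (2907 of all genes). It had 3 to 8 with 1 library other than a Dnmt3b1 library left out (1861 to 3338 of all genes). Fits that keep a single Dnmt3b1 library are given above by their medians only. TKO against DKO family had 2, and 1 at pseudocount 1, 0 without the filter, 6 with quantile normalization, 4 with median ratio scaling, 1 without the trend, 0 without both Dnmt3b1 libraries, 1 with each line once and 0 to 5 with 1 library left out. With the additive design, TKO+Dnmt3b1 and DKO+Dnmt3b1 against their parents become 1 pooled contrast. It gave 8 calls, with 3467 of all genes called, where 9 group means gave 0 for each line. DKO+Dnmt3b1 against DKO also gave 3 at pseudocount 1 (27 of all genes) and 4 with 1 RPKM in at least 2 libraries (104 of all genes). Genes called in add-back against parent numbered 559, and 173 without the filter, 1415 with the replicate block and 0 to 867 with 1 library left out. Counting each line once gave no value for 9 group means. Tdpoz1 was tested only without the filter. The cause of these shifts was not tested.

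The replicate numbers were not treated as pairs in the main fits. Over 14229 genes the replicate differences of the 2 replicated lines had a correlation of 0.086. With only 2 lines, this value cannot exclude a pairing. With the replicate block, calls numbered 4 in add-back against parent (1415 of all genes), 3 in TKO+Dnmt3b1 against TKO (1002) and 8 in DKO+Dnmt3b1 against DKO (1441). Against WT they numbered 1 in TKO add-back lines (1724 of all genes) and 1 in DKO add-back lines (804). The 1 call in TKO add-back lines is a share near that of all genes. In the same fits, Tcstv1 and Tcstv3 turned to -0.39 and -0.14 in TKO+Dnmt3a1 and to -0.43 and -0.46 in TKO+Dnmt3a2 against TKO.

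The difference in the log2 ratio of Tcstv1 to Tcstv3 between families lay between 0.88 and 1.04 in 13 alternatives chosen after seeing the data. Depth limits Tdpoz1, Tdpoz3, Tdpoz4, Zfp352 and Usp17lc in the parents, where some values rest on 1 to 9 reads.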

Other observations

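In the contrast of Dnmt3b1 with Dnmt3a libraries, all 4 tested close copies of the members rose (limma, median log2 difference 1.64), where 13.5% of all genes tested rose and 7.17% fell. Of these 4, Usp17ld, Gm4858 and BC147527 reached 1 RPKM in Dnmt3b1 libraries alone, so that their passing the filter favoured a difference. Of the 30 other 2-cell genes 26 were higher and 8 of them rose (median 1.03), and of the 5 Zscan4 genes all were higher and 1, Zscan4b, rose (median 1.43). The same filter limit holds for B020004J07Rik and Pramef6 among the 8, and for Dux, Ubtfl1 and Cml2 among the 30. The regulators Kdm1a, Chaf1b and Smc5 fell and 0 of the 29 rose, a share near that of all genes that fell. Between the TKO and DKO families all 5 Zscan4 genes fell in the TKO family (median -1.99), where 6.66% of all genes fell. Of the 30 other 2-cell genes, 10 were higher and 20 lower. The test called 4 higher, a share near the 14.4% of all genes, and 9 lower. B020031M17Rik among the 4 reached 1 RPKM in TKO family libraries alone, and Pramef6 among the 9 in DKO+Dnmt3b1 alone, so the filter favoured their directions. The 4 close copies were lower in the TKO family (median -0.65) with none called. Usp17ld and Gm4858 among them reached 1 RPKM in DKO+Dnmt3b1 alone.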
